A study of Homo sapiens with 2 samples.

Results

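The 10 microRNAs described here are the passenger arms of the human let-7 hairpins, the strands named 3p that lie opposite the let-7 guide. They were chosen by name, as every line of the deposited count table whose mature microRNA was 1 of these 10, out of 2656 mature microRNAs in all. The table assigned them to 11 let-7 hairpins. Small RNA was sequenced in 2 libraries of the cell line MDA-MB-231, which was derived from a triple-negative human breast cancer. One came from cells transduced with an shRNA against ELOVL5, a fatty acid elongase (shELOVL5), and the other from cells transduced with the control shRNA named shLuc, so both conditions carry an shRNA. With 1 library per condition there is no replicate check, no p-value is given, and every interval covers counting error only. The labels do not say whether the transduced cells were 1 clone or a pool, and their extraction text speaks of frozen tumor material although all sample labels name the cell line. Small RNA counts do not measure the ELOVL5 transcript, so the knockdown itself was not checked here.

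A let-7 hairpin is cut by Drosha and Dicer into a short duplex of 2 strands. The 5p strand, called the guide, is usually loaded into an Argonaute protein and represses growth genes such as RAS and HMGA2, while the 3p strand, the passenger, is mostly degraded. Several human let-7 hairpins give the same guide: let-7a-1, let-7a-2 and let-7a-3 share the let-7a guide, and let-7f-1 and let-7f-2 share the let-7f guide. Their passenger strands differ more, so a passenger count can point to a locus that the guide count cannot. Its level also depends on how much of the strand survives, and it is therefore no direct measure of how strongly the locus is transcribed.

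RefSeq (GRCh38.p14) held the mature sequence of 9 of the 10, the exception being hsa-let-7f-2-3p. They are shown because the letters that differ are what separates the loci. Capitals mark the seed, bases 2 to 8 from the 5′ end.
hsa-let-7a-3p: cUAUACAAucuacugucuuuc
hsa-let-7b-3p: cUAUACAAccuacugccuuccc
hsa-let-7f-1-3p: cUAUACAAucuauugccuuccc
hsa-let-7d-3p: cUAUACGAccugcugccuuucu
hsa-let-7e-3p: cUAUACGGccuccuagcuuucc
hsa-let-7a-2-3p: cUGUACAGccuccuagcuuucc
hsa-let-7g-3p: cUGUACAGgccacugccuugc
hsa-let-7c-3p: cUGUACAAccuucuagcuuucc
hsa-let-7i-3p: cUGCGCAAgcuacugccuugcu

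All 9 begin with C, are 21 to 22 bases long and hold 33.3 to 61.9% G and C. While all 8 let-7 guides carry the seed GAGGUAG, the 9 passengers carry 6 different seeds. hsa-let-7a-3p, hsa-let-7b-3p and hsa-let-7f-1-3p share UAUACAA, which among RefSeq's other mature human microRNAs is also found in hsa-miR-98-3p. hsa-let-7a-2-3p and hsa-let-7g-3p share UGUACAG, and the remaining 4 have a seed of their own. Counted from the 5′ end, hsa-let-7a-3p and hsa-let-7a-2-3p differ at 6 of 21 bases (A3G, A8G, U9C, A12C, G15A and U16G), although their guides are identical. Among the 9 with a sequence, the closest pairs differ at 2 bases. They are hsa-let-7a-2-3p with hsa-let-7e-3p (G3A and A7G), hsa-let-7a-2-3p with hsa-let-7c-3p (G8A and C12U), and hsa-let-7b-3p with hsa-let-7f-1-3p (C9U and C13U). Reads of such pairs could be assigned to either member if mismatches were allowed, and the mismatch setting used is not given in the sources used here. hsa-let-7f-2-3p has no sequence here, so its closeness to the others could not be compared. At the 3′ end, the last 10 bases, CUAGCUUUCC, are the same in hsa-let-7a-2-3p, hsa-let-7c-3p and hsa-let-7e-3p. No other of the 2370 mature microRNAs in the RefSeq table ends with them. These 3 come from the 3 clusters in which a let-7 hairpin lies beside relatives of miR-99/100 and miR-125.

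The resolution of the table by locus was not complete. hsa-let-7a-3p is listed under both let-7a-1 on chromosome 9 (94175957 to 94176036) and let-7a-3 on chromosome 22 (46112749 to 46112822), which encode the same 3p strand. Its lines held 641 and 636 counts in shELOVL5 and 576 and 566 in shLuc, so nearly the same reads were listed under both precursors. These 2 loci cannot be told apart, and the higher value was used. The other 9 passengers each stand under 1 precursor. All 11 let-7 hairpins overlap a longer gene in GENCODE 29 on the same strand. MIRLET7A2 on chromosome 11 (122146522 to 122146593) lies in an intron of MIR100HG, and MIRLET7C on chromosome 21 (16539828 to 16539911) in an intron of MIR99AHG. MIRLET7E on chromosome 19 (51692786 to 51692864) lies in an intron of SPACA6 and overlaps an exon of SPACA6P-AS on the opposite strand. MIRLET7G on chromosome 3 (52268278 to 52268361) lies in an intron of WDR82, and MIRLET7F2 on chromosome X (53557192 to 53557274) in an intron of HUWE1, a ubiquitin ligase gene. MIRLET7A3 and MIRLET7B on chromosome 22 (46113686 to 46113768) overlap annotated exons of MIRLET7BHG. MIRLET7F1 (94176347 to 94176433) and MIRLET7D (94178834 to 94178920) follow MIRLET7A1 on chromosome 9, and all 3 lie in an intron of a long noncoding RNA that GENCODE names only by its clone. MIRLET7D also lies in an intron of LINC02603 on the opposite strand. MIRLET7I on chromosome 12 (62603686 to 62603769) lies in an intron of another long noncoding RNA named only by its clone. It overlaps an exon of LINC01465 on the opposite strand.

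The shELOVL5 library held 6811811 microRNA counts and the shLuc library 7109272. Levels are given as counts per 1000000 (CPM), scaled with TMM factors. The 5 microRNAs listed as typical of a mesenchymal-like breast cancer line (miR-221-3p, miR-222-3p, miR-100-5p, miR-21-5p and miR-29a-3p) stood between 10176 and 248557 CPM. The 5 epithelial ones summed to 371 CPM in shELOVL5 and to 287 in shLuc. The 7 blood cell microRNAs summed to 331 and 398 CPM, nearly all from miR-486-5p, with miR-223-3p and miR-144-3p at 0 in both libraries. Against this sum, miR-142-5p had 84 counts in shELOVL5 and 6 in shLuc, and miR-142-3p had 45 and 2. The 3 of stroma and endothelium summed to 752 and 628 CPM, nearly all from miR-126-3p. The part of these differences in the let-7 values below was not tested.

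The 10 passenger arms together were rare. They had 7308 counts in shELOVL5 and 7551 in shLuc, against 1188618 and 1176653 for the 8 let-7 guides. That made them 0.611% of all let-7 counts in shELOVL5 and 0.638% in shLuc. hsa-let-7d-3p alone held 63.6% of the passenger counts in shELOVL5 (exact binomial 95% interval 62.5 to 64.7%) and 65.5% in shLuc (64.4 to 66.5%). Its level was 674 CPM in the shELOVL5 library and 704 CPM in the shLuc library. At the other end, hsa-let-7g-3p had 12 and 13 counts, or 1.74 and 1.85 CPM. The most and the least abundant passenger thus lay 387-fold apart in shELOVL5 and 380-fold apart in shLuc. The strands are of nearly equal length, so CPM can be set side by side, although ligation efficiency can differ between sequences.

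**Figure D1:**
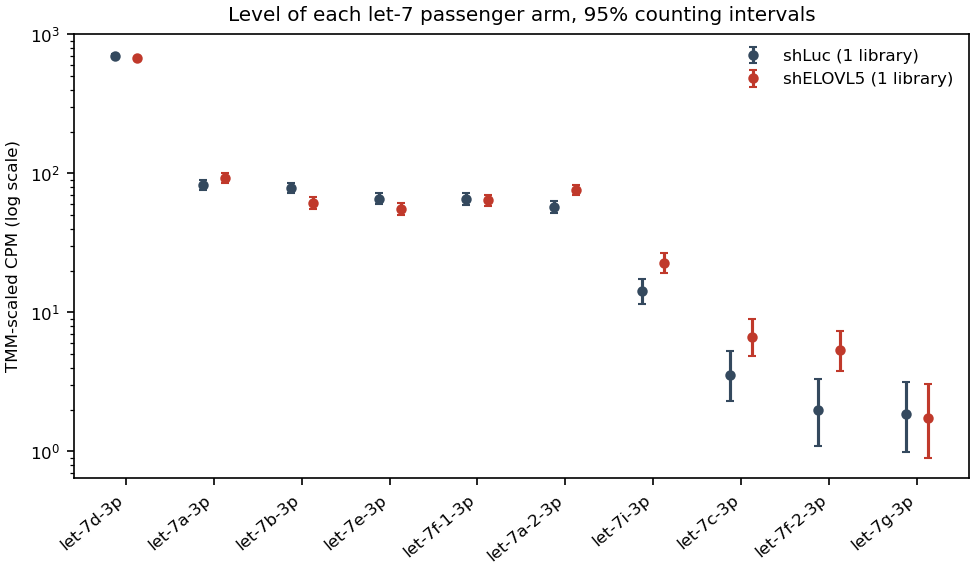
Level of the 10 let-7 passenger arms in TMM-scaled CPM (vertical log axis) in the shLuc and shELOVL5 libraries, with exact Poisson 95% counting intervals. hsa-let-7d-3p lies near 700 CPM, 5 others lie between 55.2 and 92.9 CPM, and hsa-let-7g-3p lies below 2 CPM in both.

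Between these ends the order was partly open. After hsa-let-7d-3p came hsa-let-7a-3p with 92.9 CPM (shELOVL5) and 82.0 CPM (shLuc), a value that pools the loci let-7a-1 and let-7a-3. hsa-let-7a-2-3p, hsa-let-7f-1-3p, hsa-let-7b-3p and hsa-let-7e-3p followed at 55.2 to 75.8 CPM when measured in shELOVL5, and each neighbour in that order had an overlapping counting interval. In shLuc the same 4 lay between 57.5 and 78.8 CPM in another order, led by hsa-let-7b-3p, whose interval overlapped that of hsa-let-7a-3p but not that of hsa-let-7e-3p below it. The intervals of hsa-let-7e-3p, hsa-let-7f-1-3p and hsa-let-7a-2-3p overlapped from each to the next. hsa-let-7i-3p was apart from its neighbours in both libraries, at 22.8 CPM (shELOVL5) and 14.2 CPM (shLuc). hsa-let-7c-3p and hsa-let-7f-2-3p came next, with overlapping intervals, at 6.67 and 5.36 CPM in shELOVL5 and at 3.56 and 1.99 CPM in shLuc.

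The passenger's share of a hairpin's counts differed widely among let-7 families that have nearly the same guide. For let-7d, the passenger made up 13.05% of the counts of both arms in shELOVL5 (12.7 to 13.4%) and 13.4% in shLuc (13.1 to 13.8%). For let-7e the share was 1.39% and 1.62%, and for let-7b 1.18% and 1.27%. In let-7a, with its passengers summed over loci, it was 0.383% and 0.340%, and in let-7f 0.201% and 0.213%. let-7c had a share of 0.370% in shELOVL5 and 0.197% in shLuc. For let-7i the share was 0.0385% and 0.0242%, and for let-7g 0.00887% and 0.00939%. hsa-let-7i-5p was the most abundant let-7 guide in both libraries (59090 and 58929 CPM), yet its passenger was only seventh in level among the 10.

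Most of these shares lay below the median of other hairpins. The comparison took 175 hairpins not named let-7, with miR-98 among them. Each had at least 100 counts over both arms and both libraries, and at least 1 count on each arm in each library. Their less abundant arm had a median share of 4.30% in shELOVL5 and 4.44% in shLuc. Of the 8 let-7 families, 7 lay below that median in each library, and 5 lay below the lower quartile of 0.765% in shELOVL5 and 0.832% in shLuc. The set was not matched for depth, and with at least 1 minor-arm count a rare hairpin cannot show a very low share. Abundant hairpins of the set had both low and high shares. In shLuc these were 0.00292% for miR-100 and 0.106% for miR-29a, but 5.54% for miR-221 and 10.6% for miR-30a. Among the let-7 families, let-7d was the exception above the median. Its guide is also the exception in sequence, since 7 of the 8 let-7 guides begin with U. Against hsa-let-7a-5p, hsa-let-7d-5p carries the substitutions U1A and U16C, as the following lines show with the seed in capitals.
hsa-let-7a-5p: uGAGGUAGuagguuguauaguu
hsa-let-7d-5p: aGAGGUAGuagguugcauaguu
The part of the first base in the share was not tested.

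**Figure D2:**
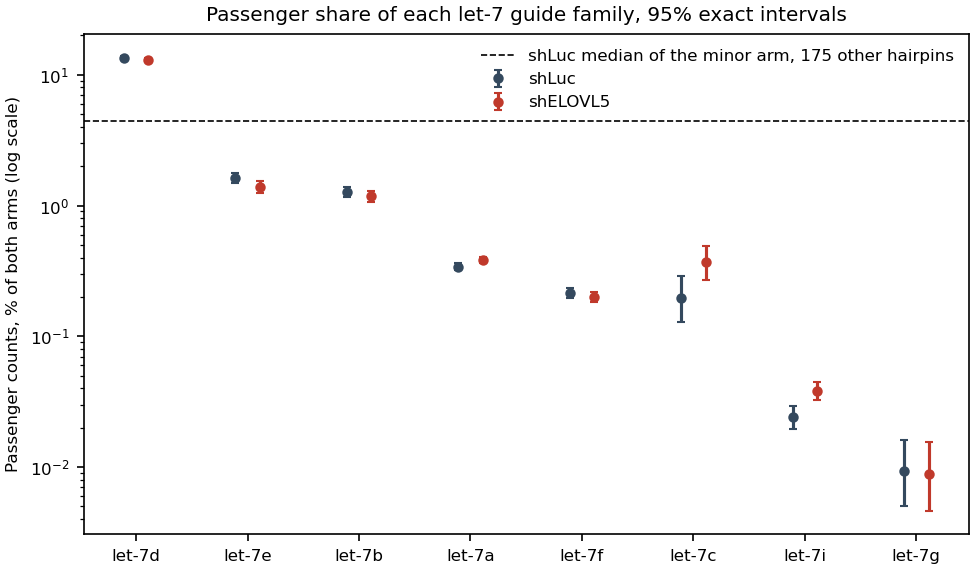
Passenger counts as a percentage of both arms (vertical log axis) for each let-7 guide family in the shLuc and shELOVL5 libraries, with exact binomial 95% intervals and a dashed line at the shLuc median of 175 other hairpins (4.44%). let-7d is the only family above the line, and the families run down to let-7g at 0.00887 to 0.00939%.

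The comparison of shELOVL5 with shLuc asked whether passenger arms, and with them the let-7 loci, stood at different levels in the presence of the ELOVL5 shRNA. Their sum was close to level, at 1060 and 1075 CPM, a ratio of shELOVL5 over shLuc of 0.985 (0.954 to 1.02). The summed guides had a ratio of 1.03 (1.03 to 1.03). Single passengers spread more widely, from 0.779 for hsa-let-7b-3p to 2.69 for hsa-let-7f-2-3p, while the 8 guides lay between 0.841 and 1.09. Of the 10 passengers, 7 had at least 100 counts over both libraries, and none of these was 2-fold higher or 2-fold lower in shELOVL5. Among all 348 microRNAs with at least 100 counts, 1.72% were at least 2-fold higher and 0% at least 2-fold lower.

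At a 1.5-fold rule, 1 of the 7, hsa-let-7i-3p, was higher, and none was lower. Over the 348 microRNAs this held for 7.18% (higher) and 1.15% (lower). The counting interval lay wholly above 1 for 3 of the 7 and wholly below 1 for 3, against 29.6% above and 26.4% below among the 348. The median log2 ratio was -0.035 for the 7 passengers and -0.017 for the 348. Minor arms of hairpins outside let-7 with at least 100 counts, 92 in number, had a median log2 ratio of 0.023, with 20.7% of their intervals above 1 and 17.4% below. These sets were not matched for depth, and whether an interval clears 1 depends on depth. It also depends on scaling. The interval of hsa-let-7d-3p included 1 with total count scaling, and that of hsa-let-7a-3p with DESeq2 size factors. The SD of the log2 ratio was 0.37 among the 7 passengers and also 0.37 among those 92 minor arms, and it was 0.11 among the 8 let-7 guides. The guides have far more counts than either set of minor arms.

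**Figure D3:**
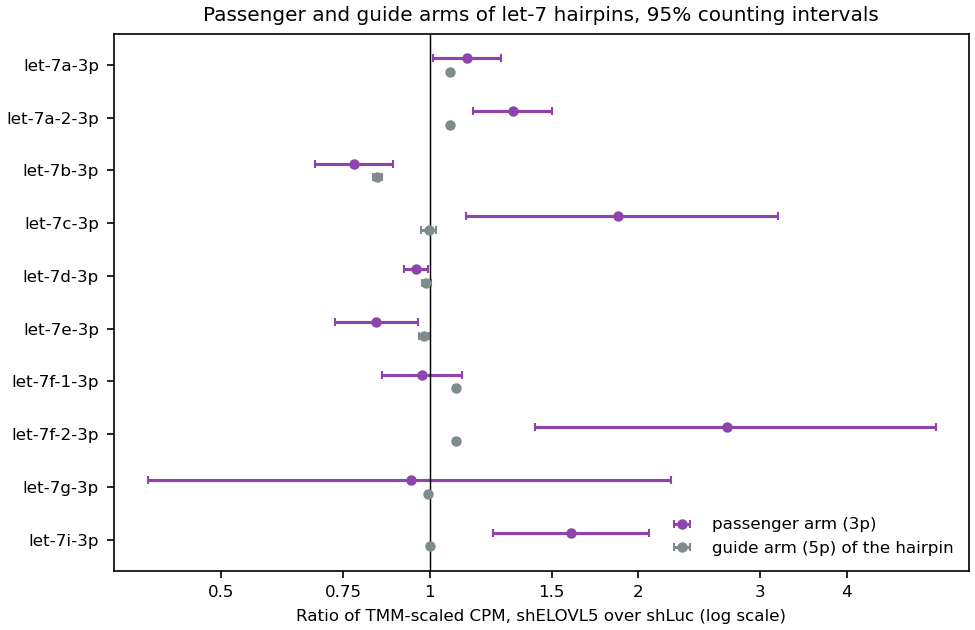
Ratio of TMM-scaled CPM, shELOVL5 over shLuc (horizontal log axis), for each let-7 passenger arm (purple) and for the guide arm of its hairpin (grey), with exact 95% counting intervals. The guides lie between 0.841 and 1.09, and the passengers between 0.779 and 2.69.

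The passengers of the let-7a guide, the second most abundant let-7 guide, stood higher in shELOVL5. hsa-let-7a-2-3p, from the chromosome 11 locus, had 523 counts in shELOVL5 and 404 in shLuc, a ratio of 1.32 (1.16 to 1.504). hsa-let-7a-3p, from chromosomes 9 and 22, had 641 and 576 counts, which gave a ratio of 1.13 (1.01 to 1.27). With DESeq2 size factors its interval included 1 (0.993 to 1.25). The guide hsa-let-7a-5p had 302713 and 287560 counts and a ratio of 1.07 (1.07 to 1.08). Relative to this guide, hsa-let-7a-2-3p was 1.23-fold higher in shELOVL5 (1.08 to 1.40), and hsa-let-7a-3p was 1.06-fold higher with an interval that included 1 (0.945 to 1.18). The chromosome 11 locus gave 44.9% of the let-7a passenger counts in shELOVL5 (42.05 to 47.8%) and 41.2% in shLuc (38.1 to 44.4%). The ratio of hsa-let-7a-2-3p to hsa-let-7a-3p changed by 1.16-fold, with an interval from 0.980 to 1.38, so a difference between these passengers was not detectable at this depth.

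The let-7f guide comes from the same chromosome 9 cluster and from chromosome X. hsa-let-7f-1-3p, from chromosome 9, had 441 counts in shELOVL5 and 460 in shLuc, a ratio of 0.976 (0.855 to 1.11). hsa-let-7f-2-3p, from chromosome X, had 37 and 14 counts, which gave a ratio of 2.69 (1.42 to 5.39). The ratio of hsa-let-7f-2-3p to hsa-let-7f-1-3p changed by 2.76-fold (1.47 to 5.17), which was beyond counting error. The share of the chromosome X passenger in the let-7f passenger counts was 7.74% in shELOVL5 (5.51 to 10.5%) and 2.95% in shLuc (1.62 to 4.91%). The guide hsa-let-7f-5p itself had a ratio of 1.09 (1.08 to 1.097). The chromosome X value rests on 51 counts. Whether some of them are reads of another passenger cannot be told, since its sequence was not compared. Adding 5 CPM to both libraries draws the ratio of so rare an arm toward 1 by construction. The log2 ratio of hsa-let-7f-2-3p then fell from 1.43 to 0.57, below 2-fold. Among 562 microRNAs with at least 20 counts 4.98% were at least 2-fold higher and 2.67% at least 2-fold lower. hsa-let-7f-2-3p was the only one of the 10 passengers past 2-fold at that limit. In both libraries hsa-let-7f-1-3p exceeded hsa-let-7f-2-3p, by 11.9-fold in shELOVL5 and 32.9-fold in shLuc, although both hairpins carry the same guide.

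Among hairpins with a guide of their own, let-7i and let-7c had a higher passenger beside a level guide. hsa-let-7i-3p had 157 counts in shELOVL5 and 100 in shLuc, a ratio of 1.60 (1.24 to 2.07), while hsa-let-7i-5p was level at 1.00 (0.998 to 1.01). The passenger-to-guide ratio was 1.59-fold higher in shELOVL5 (1.24 to 2.05). hsa-let-7c-3p had 46 and 25 counts, which gave a ratio of 1.87 (1.13 to 3.18), beside hsa-let-7c-5p at 0.997 (0.973 to 1.02), and its passenger-to-guide ratio was 1.88-fold higher (1.15 to 3.06). Of 175 other hairpins, 16.6% had a minor-to-major ratio at least 1.5-fold higher in shELOVL5 and 11.4% at least 1.5-fold lower. For the 8 let-7 families these counts were 2 higher and 0 lower. Some changes among the 175 rest on few minor-arm counts. In shELOVL5 and shLuc these were 9 and 2 for hsa-miR-937-5p, which was higher, and 1 and 6 for hsa-miR-548o-5p, which was lower.

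let-7b and let-7e went the other way. hsa-let-7b-3p had 423 counts in shELOVL5 and 553 in shLuc, a ratio of 0.779 (0.684 to 0.885). Its guide hsa-let-7b-5p was also lower, at 0.841 (0.829 to 0.853), and the passenger-to-guide ratio changed by 0.926-fold, with an interval that included 1 (0.815 to 1.05). Both arms of this hairpin were lower, and a difference between them was not beyond counting error. hsa-let-7e-3p had 381 and 463 counts, which gave a ratio of 0.838 (0.730 to 0.961), beside a guide at 0.981 (0.965 to 0.998). Its passenger-to-guide ratio was 0.854-fold (0.745 to 0.979).

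The passengers of let-7d and let-7g gave the narrowest and, on a log scale, the widest interval of the 10. hsa-let-7d-3p, with 4647 counts in shELOVL5 and 4943 in shLuc, had a ratio of 0.957 (0.919 to 0.996). With scaling by total counts it was 0.981 and the interval included 1 (0.942 to 1.02). hsa-let-7d-5p stood at 0.990 (0.974 to 1.01), and the arm ratio changed by 0.967-fold (0.926 to 1.01). hsa-let-7g-3p, at 0.940 (0.392 to 2.23), was too rare for a difference to be detectable. Over the 8 families the interval of the arm ratio lay above 1 for let-7a, let-7c and let-7i and below 1 for let-7e. Of the 175 other hairpins, 17.1% lay above and 12.6% below. They were not matched for depth, and intervals that rest on few minor-arm counts are wide. The median log2 change of the arm ratio was -0.066 over the 8 families and 0.028 over the other hairpins.

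Hairpins of 1 cluster may be cut from 1 transcript, so each passenger was set beside its neighbours, with the level of both arms in mind. On chromosome 9, hsa-let-7f-1-3p did not differ beyond counting error from hsa-let-7d-3p, with a ratio of their ratios of 1.02 (0.890 to 1.17). hsa-let-7a-3p was 1.18-fold higher relative to hsa-let-7d-3p (1.05 to 1.33), and relative to hsa-let-7f-1-3p it was 1.16-fold higher with an interval that included 1 (0.977 to 1.38). On chromosome 22, hsa-let-7a-3p was 1.45-fold higher relative to its neighbour hsa-let-7b-3p (1.23 to 1.72). How the hsa-let-7a-3p counts divide between these chromosomes cannot be told apart.

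The chromosome 11 cluster, in MIR100HG, holds miR-100, let-7a-2 and miR-125b-1. All 3 of its passengers were higher in shELOVL5. The ratio was 1.48 (1.02 to 2.15) for hsa-miR-100-3p, with 74 and 51 counts, and 1.08 (1.04 to 1.12) for hsa-miR-125b-1-3p, with 6398 and 6024. hsa-let-7a-2-3p did not differ beyond counting error from hsa-miR-100-3p (0.892-fold, 0.610 to 1.30), and was 1.22-fold higher relative to hsa-miR-125b-1-3p (1.07 to 1.39). The guides of this cluster did not move as 1 group, since hsa-miR-100-5p stood at 0.868 (0.866 to 0.870) and hsa-miR-125b-5p, which also comes from chromosome 21, at 1.24 (1.23 to 1.26).

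The paralogous cluster on chromosome 21 holds miR-99a, let-7c and miR-125b-2. Here hsa-miR-125b-2-3p had a ratio of 1.22 (1.04 to 1.42), and hsa-miR-99a-3p, with 16 and 15 counts, one of 1.09 (0.503 to 2.36). hsa-let-7c-3p was 1.54-fold higher relative to hsa-miR-125b-2-3p and 1.72-fold higher relative to hsa-miR-99a-3p, with intervals of 0.925 to 2.56 and 0.733 to 4.06 that include 1. On chromosome 19, in SPACA6, hsa-let-7e-3p at 0.838 stood beside hsa-miR-99b-3p at 0.807 (0.779 to 0.835) and hsa-miR-125a-3p at 0.994 (0.867 to 1.14). It did not differ beyond counting error from either, with ratios of ratios of 1.04 (0.903 to 1.19) and 0.842 (0.696 to 1.02). The guides hsa-miR-99b-5p at 0.678 (0.673 to 0.684) and hsa-miR-125a-5p at 0.844 (0.834 to 0.853) were also lower. The let-7 guide of this cluster, hsa-let-7e-5p, was nearer to level at 0.981 (0.965 to 0.998). On chromosome X, in HUWE1, hsa-miR-98-3p had 14 and 9 counts, which gave a ratio of 1.58 (0.638 to 4.15). Relative to it hsa-let-7f-2-3p was 1.70-fold higher (0.601 to 4.80), an interval too wide to separate them.

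**Figure D4:**
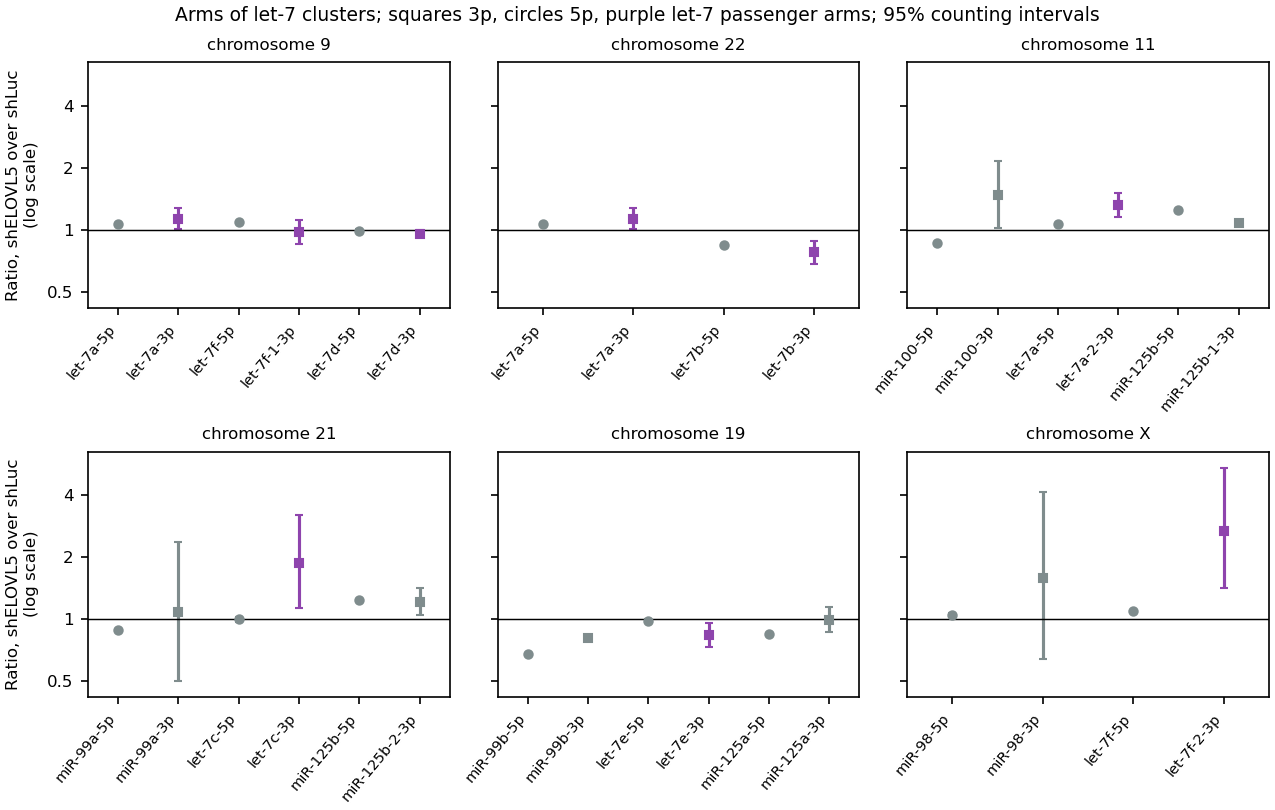
Ratio of TMM-scaled CPM, shELOVL5 over shLuc (vertical log axis), for both arms of the microRNAs in the 6 let-7 clusters, with squares for 3p arms, circles for 5p arms, purple for let-7 passengers and bars for 95% counting intervals. The let-7 passengers of chromosomes 11, 21 and X lie above 1 and those of chromosome 19 and hsa-let-7b-3p of chromosome 22 below it. Guides made at several loci are drawn in each.

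Of the 13 arms of the partner hairpins, 5 had intervals above 1 and 5 below, beside 29.6% above and 26.4% below among the 348 microRNAs with at least 100 counts. hsa-miR-98-3p and hsa-miR-99a-3p, with fewer than 100 counts, are among the 13. The 13 and the 348 were not matched for depth. The median log2 ratio of the 13 was 0.072. Passengers with the shared seed UAUACAA lay on both sides of a ratio of 1. hsa-let-7a-3p, hsa-let-7b-3p and hsa-let-7f-1-3p, which all carry it, had ratios of 1.13, 0.779 and 0.976, the last with an interval that included 1. Of the pair with UGUACAG, hsa-let-7a-2-3p had a ratio of 1.32. The interval of hsa-let-7g-3p, at 0.940 (0.392 to 2.23), was too wide to place it on either side. hsa-let-7a-2-3p, hsa-let-7c-3p and hsa-let-7e-3p, which share their last 10 bases, had 1.32, 1.87 and 0.838.

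**Figure D5:**
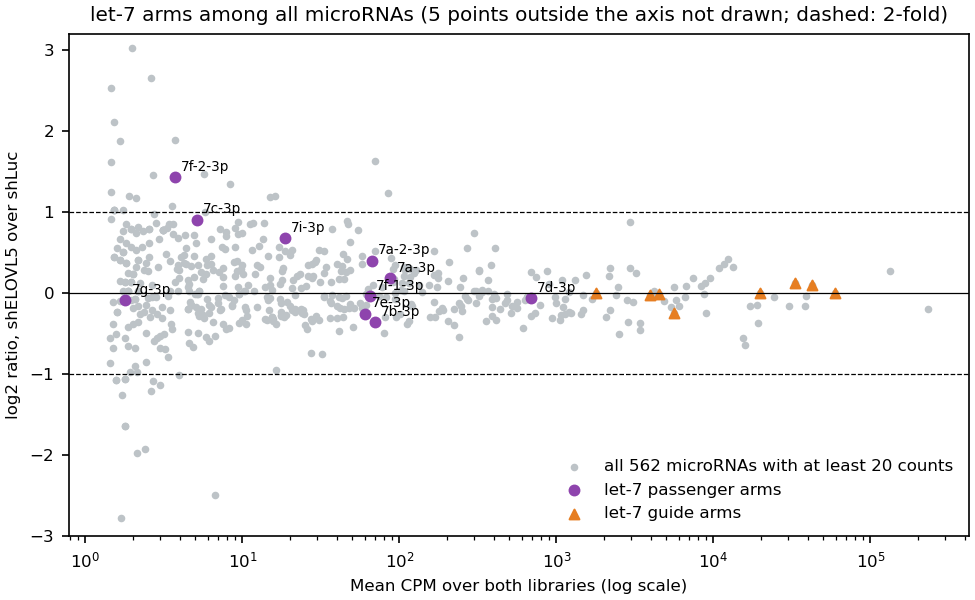
log2 ratio of shELOVL5 over shLuc (vertical axis) against the mean CPM of both libraries (horizontal log axis) for the 562 microRNAs with at least 20 counts in grey, let-7 passenger arms in purple and let-7 guide arms as orange triangles, with dashed lines at 2-fold. Of the 562, 5 lie outside the vertical axis and are not drawn. The rarest passengers lie where the scatter of all microRNAs is widest, and hsa-let-7f-2-3p at 1.43 is the single let-7 arm past a dashed line.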

How the data were processed

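Small RNA of 2 MDA-MB-231 libraries (shELOVL5 and shLuc, 1 each) was sequenced as single-end reads of 50 bases with a NEBNext small RNA kit, per the labels' protocols. The deposited values are raw read counts per precursor and mature microRNA. Per the submitters' processing notes, Bowtie 1.1.1, cutadapt 2.10 and FastQC 0.11.9 were used. The counting program, the microRNA release and the rule for multiply matching reads were not given in the sources used here. Since the labels describe no molecular identifiers, PCR copies may be counted.

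For the 166 mature microRNAs listed under several precursors, the highest value was kept. CPM were scaled over all 2656 microRNAs with TMM factors of edgeR 4.0.16 (R 4.3.3), and no count model was fitted. Ratios carry exact Clopper-Pearson 95% intervals of 1 library's share of both counts. Ratios of ratios carry Wald 95% intervals on the log scale. Levels carry exact Poisson intervals, from scipy 1.17.1. The intervals of ratios were checked on simulated counts with at least 20 counts over both libraries. Those of ratios of ratios were checked only on simulated counts far above those of the rarest passengers, so their coverage at low counts is not known. The scaling step was not checked. Differences were described at 2-fold, with at least 100 counts over both libraries. Named microRNAs were the 10 passengers, the let-7 guides, both arms of miR-98, and those of the cluster partners. Members and lists were chosen with earlier results of these data known. Sequences and coordinates are RefSeq's (GRCh38.p14), and overlapping genes are from GENCODE 29.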

Additional observations from a re-analysis of the deposited data

How the results depend on the processing

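No paired analysis was possible because shELOVL5 and shLuc have a single library each, and leaving out a library would leave no comparison. The summed passengers had a log2 ratio of -0.021, and of 0.055 without hsa-let-7d-3p, the most abundant, both near level. The count of passengers at least 2-fold higher, 0, became 1 at a 1.5-fold rule (hsa-let-7i-3p) and 1 with at least 20 counts (hsa-let-7f-2-3p). It stayed 0 with a mean of at least 50 CPM, total count scaling and DESeq2 1.42.0 size factors, and none was 2-fold lower in any of these. When precursor rows were summed, hsa-let-7a-3p was counted for both its loci, so the let-7a-2 share was 29.1% in shELOVL5 and 26.1% in shLuc, by construction. With the lowest of the copies it was 45.1% and 41.6%. Total count scaling shifted every log2 ratio by 0.036 and DESeq2 size factors by -0.026. Under the former, hsa-let-7f-1-3p and hsa-miR-125a-3p changed sign, both near a ratio of 1. Adding 5 CPM to each library draws the ratios of rare arms toward 1 by construction. It took the log2 ratio of hsa-let-7f-2-3p from 1.43 to 0.57, below 2-fold, and that of hsa-let-7c-3p from 0.91 to 0.45. Both stayed within their wide counting intervals. Depth limits hsa-let-7c-3p, hsa-let-7f-2-3p and hsa-let-7g-3p, which had 71, 51 and 25 counts over both libraries.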
